A study of Mus musculus with 22 samples.

Results

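A bidirectional promoter serves 2 genes that start close together and are read in opposite directions, away from each other. H3K27Ac ChIP-seq peaks were examined here at the bidirectional promoters of protein-coding genes in mouse myeloid progenitors. From GENCODE M21 gene models of the GRCm38 build, every pair of protein-coding genes on chromosomes 1 to 19 was taken whose 5'-most transcription start sites (TSSs) lay on opposite strands, pointed apart and were at most 1 kb from each other. The choice used the annotation and no peak value. It gave 734 pairs, which hold 1448 of the 20807 protein-coding genes on these chromosomes, and 40 of the pairs share a gene with another pair, leaving 714 separate places. The region of a pair was the span between its TSSs plus 1 kb inside each gene. The TSSs were 1 to 987 bp apart, with a median of 128 bp and a middle range of 66.25 to 240 bp. For comparison, 18126 single promoters were taken, which have no other protein-coding TSS within 1 kb on either strand, with 1 kb on each side of the TSS.

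The libraries came from KL cells, lineage-negative, cKIT-positive and Sca-1-negative myeloid progenitors sorted from the bone marrow of male C57BL/6 mice of genotype scl-Cre-ERT +; Bcorfl/y. All mice had received 1 mg of tamoxifen by intraperitoneal injection on 5 consecutive days at 3 to 6 months of age, and the libraries are labelled 20w (20 weeks). The Cre is switched on by tamoxifen and expressed under an Scl enhancer that is active in haematopoietic stem cells. Bcor, which is on the X chromosome and encodes a subunit of the Polycomb complex PRC1.1, therefore loses exons 9 and 10 in those cells and their progeny (BcorΔE9-10). The share of sorted cells that carried the deletion was not measured in these files. Of 22 samples in 11 groups, the 3 BcorΔE9-10 KL H3K27Ac libraries were analysed. No H3K27Ac library of control cells was used, so every comparison is between classes of promoter within these libraries.

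The lists held 22998 to 25516 peaks on chromosomes 1 to 19, from an estimated depth of 18.04 to 19.26 M reads. The weakest called summits held 8, 8 and 9 fragments in replicates 1, 2 and 3, so acetylation below that is not represented. Of 6 progenitor genes, 5 (Kit, Myb, Runx1, Spi1 and Cebpa) had a summit within 1 kb of the TSS in all 3 libraries, whereas Gata2 had one in 1 library. None of 5 mature neutrophil, 3 B cell, 3 T cell, 3 erythroid and 6 non-haematopoietic marker genes had one in all 3 libraries, and the neutrophil gene Ngp had one in 1 library.

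H3K27Ac, acetylation of lysine 27 of histone H3, is laid down on nucleosomes beside active promoters and enhancers. The stretch of DNA where transcription starts is usually kept free of nucleosomes, so the mark tends to flank it. Most promoters of mammals that are read in both directions lie in CpG islands, and the genes they serve are often housekeeping genes for DNA repair, mitochondria, translation and protein turnover. At such a promoter a single nucleosome-free stretch can serve both genes, with each gene's first nucleosome on its own side.

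The sequence between the TSSs of a pair is short, and 5 of these intervals are printed because they belong to the most strongly acetylated pairs or to textbook pairs. They were read from the plus strand of the RefSeq copy of GRCm38, 5' to 3', from the base after the minus-strand gene's TSS to the base before the plus-strand gene's TSS. Capitals mark matches to 11 short motifs searched on both strands. The intervals are chr17:48409907-48410013 between Nfya and Oard1, chr16:5049864-5050056 between Glyr1 and Ubn1, chr2:168230365-168230621 between Gm20716 and Mocs3, chr11:101551956-101552148 between Brca1 and Nbr1, and chr17:15499752-15499887 between Psmb1 and Tbp. The annotation places no exon of the named pair inside its interval, but the TSS of Dpm1 falls within that of Gm20716 and Mocs3.
Nfya/Oard1: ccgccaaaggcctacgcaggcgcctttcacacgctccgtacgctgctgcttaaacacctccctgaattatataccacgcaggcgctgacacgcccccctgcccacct
Glyr1/Ubn1: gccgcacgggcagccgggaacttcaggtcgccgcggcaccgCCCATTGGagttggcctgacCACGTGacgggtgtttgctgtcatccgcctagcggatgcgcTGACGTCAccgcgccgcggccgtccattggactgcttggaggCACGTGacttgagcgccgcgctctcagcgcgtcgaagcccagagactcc
Gm20716/Mocs3: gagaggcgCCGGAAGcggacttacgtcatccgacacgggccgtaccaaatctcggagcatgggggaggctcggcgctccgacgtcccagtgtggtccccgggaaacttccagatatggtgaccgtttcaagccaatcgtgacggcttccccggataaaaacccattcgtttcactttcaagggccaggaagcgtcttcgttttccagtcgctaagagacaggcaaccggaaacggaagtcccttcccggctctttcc
Brca1/Nbr1: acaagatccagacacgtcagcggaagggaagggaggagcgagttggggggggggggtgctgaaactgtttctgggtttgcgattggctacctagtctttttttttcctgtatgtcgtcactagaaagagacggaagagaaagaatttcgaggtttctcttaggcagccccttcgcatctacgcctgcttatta
Psmb1/Tbp: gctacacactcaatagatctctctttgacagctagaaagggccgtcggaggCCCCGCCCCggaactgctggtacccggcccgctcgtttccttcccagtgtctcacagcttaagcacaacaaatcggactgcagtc

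In the Glyr1/Ubn1 interval of 193 bases there were 4 matches, 1 to an NF-Y motif, 1 to the cyclic AMP response element (CRE) and 2 to an E-box. The Gm20716/Mocs3 interval held 1 ETS match and Psmb1/Tbp 1 SP/KLF match, while Nfya/Oard1 and Brca1/Nbr1 held no match to these letters. The 5 intervals held 8 to 25 CpG dinucleotides and were 50.3% to 68.4% GC.

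Bidirectional promoters carried H3K27Ac summits far more often than single promoters. A region was called marked in a library when it held at least 1 summit, the highest point within a peak. A pair has 2 gene starts and so 2 chances to be marked, against 1 for a single promoter. Of the 734 pairs, 89.1% (95% Wilson interval 86.6 to 91.2%) were marked in replicate 1, 90.1% in replicate 2 and 89.6% in replicate 3. Single promoters were marked at 36.8%, 38.1% and 38.1%, and all protein-coding genes, taken with 1 kb on each side of the TSS, at 42.8%, 44.0% and 43.9%. The classes did not overlap in any library, and the difference was 51.9 ± 0.362 percentage points (SD, n = 3 libraries; two-sided exact permutation test that flips the sign of each library's difference, p = 0.25, which is the smallest p that 3 libraries allow).

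The marks were repeated across libraries. In all 3 libraries 636 pairs (86.6%, 84.0 to 88.9%) were marked, against 6321 single promoters (34.9%, 34.2 to 35.6%) and 40.7% of all genes. The difference of 51.8 percentage points had a Newcombe 95% interval of 49.03 to 54.1 points. No library had a summit at 60 pairs (8.17%), and 11 and 27 pairs were marked in 1 and 2 libraries. Single promoters with a noncoding gene's TSS on the other strand within 1 kb stood between the classes, with 980 of 1601 (61.2%) marked in all 3 libraries, against 5341 of 16525 (32.3%) of those without one. The region of a pair is wider than that of a single promoter, and with the single windows extended upstream by the median TSS distance 34.9% of them were marked. That extension adds no gene start. Divergent neighbours with TSSs over 1 kb and up to 10 kb apart also have 2 starts. Neither gene held a summit from the TSS to 1 kb downstream in 40.9%, 38.7% and 38.5% of 866 such neighbours. The same share was 11.7%, 10.4% and 11.2% of the 734 pairs, without matching for CpG content.

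CpG content moved with the mark in both classes. In a window from 250 bases before to 50 after the TSS, the ratio of observed to expected CpG had a median of 0.854 in the genes of pairs and 0.469 in single genes, and the GC content medians were 62.7% and 54.3%. A promoter with a CpG ratio of at least 0.6 and at least 50% GC was called CpG-rich, which 82.5% of genes in pairs and 38.0% of single genes were. Among pairs with CpG-rich promoters for both genes, 519 of 561 (92.5%) were marked in all 3 libraries, against 4555 of 6882 (66.2%) CpG-rich single promoters, so the difference was 26.3 points (23.6 to 28.5). Where neither gene was CpG-rich, 43 of 83 pairs (51.8%) were marked against 15.7% of single promoters, a difference of 36.1 points (25.5 to 46.6). Pairs were the more often marked within both CpG classes, where the number of gene starts was not matched.

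**Figure D1:**
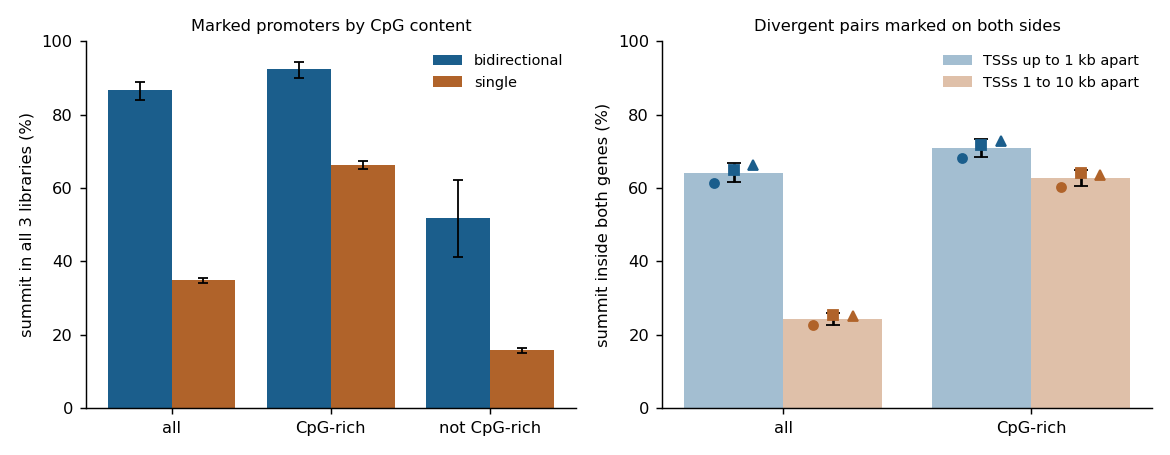
Left, the share of promoters (%) with a summit in all 3 libraries, for all promoters and by CpG content, bidirectional in blue and single in brown, with 95% Wilson intervals as bars. Right, the share of divergent pairs (%) with a summit inside both genes, for TSSs up to 1 kb and 1 to 10 kb apart, with bars for the mean, error bars for the SD and points for the 3 libraries; the gap of 39.9 points between the classes is 8.33 points among CpG-rich pairs.

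Where they were marked, bidirectional promoters had somewhat higher and clearly wider enrichment. The fold enrichment deposited by the authors is the ratio of fragments at a summit to the background estimated for that library in peak calling. The strongest summit of each region was used. At a pair it is the highest over both gene starts, and the effect of this on the ratio was not tested. Its median over marked pairs was 9.91, 10.3 and 11.7 in the 3 libraries, against 8.61, 8.93 and 10.2 for marked single promoters. Within each library the pairs were higher, by a ratio of 1.15 ± 0.00353 (SD, n = 3; exact sign-flip permutation test, p = 0.25), although the median of single promoters in replicate 3 was above that of pairs in replicate 1. The strongest summit held a median of 36, 39 and 46 fragments at pairs and 31, 33 and 38 at single promoters. Among CpG-rich promoters the ratio of fold enrichments was 1.104, 1.08 and 1.06.

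Peaks were wider at pairs in each library. The region of a pair covers both gene starts, which was not corrected for in the widths or the summit numbers. The summed width of the peaks with a summit in the region had a median of 1045, 1109 and 1162 bp at marked pairs, against 768, 811.5 and 841 bp at marked single promoters, a ratio of 1.37 ± 0.0108 (SD, n = 3; exact sign-flip permutation test, p = 0.25). No library of the single promoters reached the width of the pairs in any library. Marked pairs also held 2 or more summits more often, at 78.1%, 81.1% and 81.6% against 56.8%, 59.1% and 61.0%.

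**Figure D2:**
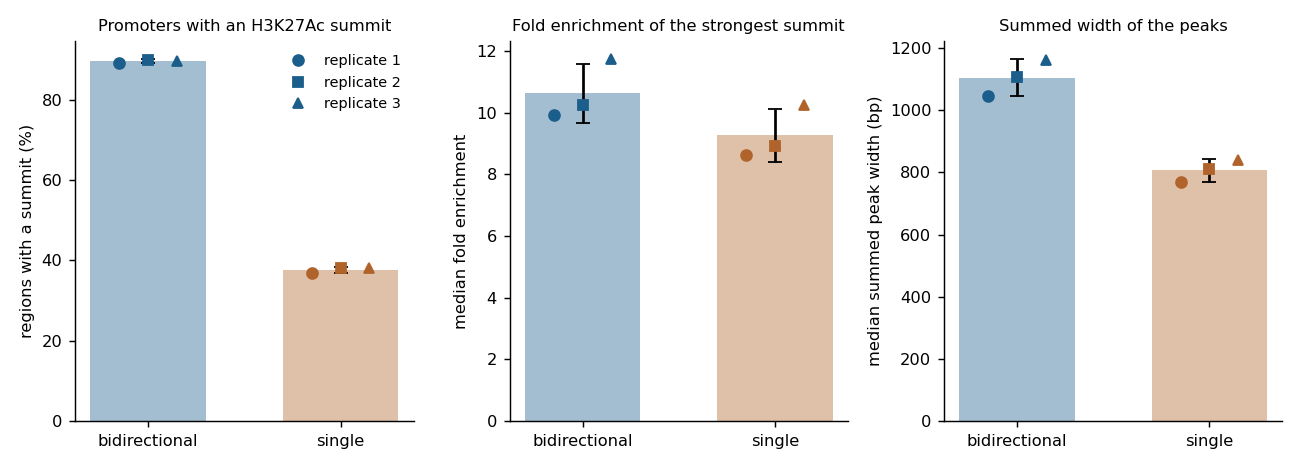
Share of regions with a summit (%), median fold enrichment of the strongest summit and median summed peak width (bp) of bidirectional and single promoters. Bars are the mean over the 3 libraries, error bars the SD and points the libraries; pairs lie above single promoters in each library, most of all for the share marked (89.6% against 37.7%).

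In most marked pairs the strongest summit lay inside a gene rather than between the TSSs. The strongest summit of a marked pair fell between the TSSs in 33 of 654 pairs (5.05%), 30 of 661 (4.54%) and 32 of 658 (4.86%), while that interval makes up 7.77%, 7.76% and 7.72% of the length of these regions. Otherwise it lay a median of 222, 225 and 222 bp downstream of the nearer gene's TSS. The minus-strand gene held it in 333, 330 and 322 pairs and the plus-strand gene in 44.0%, 45.5% and 46.2% of marked pairs. Single promoters had their strongest summit downstream of the TSS in 87.9%, 88.6% and 88.4% of cases.

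The positions differed with the distance between the genes. In pairs with TSSs at most 100 bp apart, the 50 bp bins centred 225 bp to each side of the midpoint held the most summits, 22.9 per 100 pairs on either side as the mean over libraries, and the bins beside the midpoint held 0.0545. In pairs with TSSs over 300 bp apart, the bins beside the midpoint held 7.45 summits per 100 pairs, so summits between the TSSs were found mainly where the interval was long. The strongest summit was between the TSSs in 0% of marked pairs up to 100 bp apart and in 0.750 ± 0.323% at over 100 and up to 200 bp. The share was 10.8 ± 1.82% at over 200 and up to 300 bp, 17.6 ± 1.62% at over 300 and up to 500 bp and 21.2 ± 1.92% at over 500 bp (SD, n = 3 libraries). The interval also makes up more of the region as TSS distance grows, and the shares in these classes were not compared with its length.

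**Figure D3:**
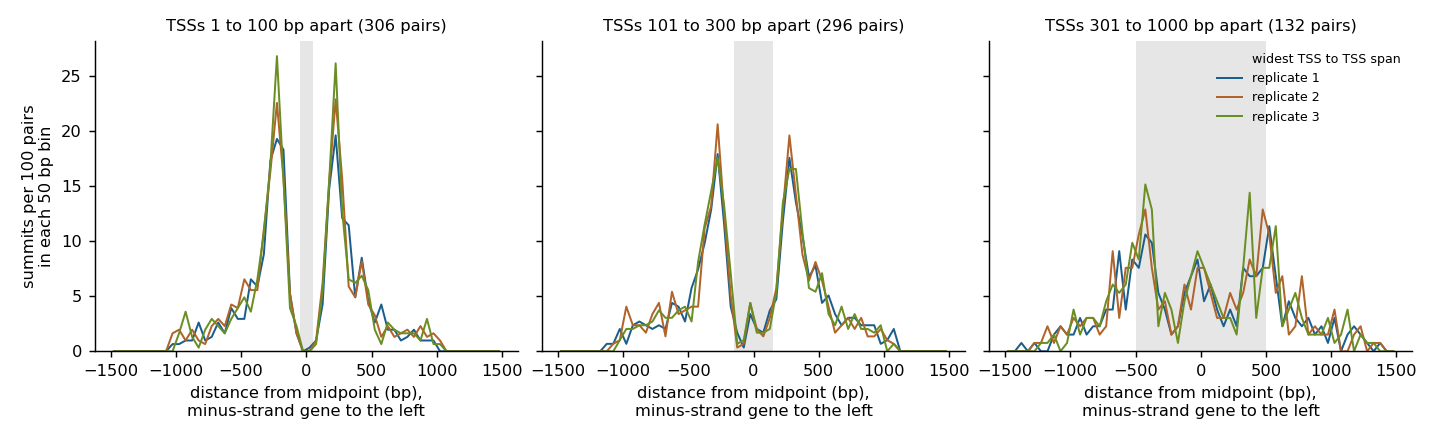
Summits per 100 pairs in bins of 50 bp by distance from the midpoint of the TSSs (bp), for pairs with TSSs up to 100, 300 and 1000 bp apart, with a line for each library and grey for the widest span between TSSs in the class. Summits form a peak on each side of an almost empty centre in the closest class. A further peak at the centre is small in the middle class and larger in the most distant class, with 2.98 and 7.45 summits per 100 pairs in the bins beside the midpoint.

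Among the named pairs, Rad17/Taf9 and Cep76/Psmg2 carried their strongest summit between the TSSs in all 3 libraries. Rad17, a checkpoint protein that loads the clamp at damaged DNA, and Taf9, a subunit of the general factor TFIID, start 528 bp apart, and the interval reached a fold enrichment of 30.3, 20.7 and 28.2. Cep76, a centriole protein, and Psmg2, a proteasome assembly chaperone, start 263 bp apart, and theirs reached 21.2, 18.8 and 33.7.

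Both genes of a close pair were usually marked. A summit from the TSS to 1 kb downstream was present in both genes in 450 (61.3%), 477 (65.0%) and 487 (66.3%) of the 734 pairs. It was present in both genes in all 3 libraries in 407 pairs (55.4%, 51.8 to 59.0%). Of all genes counted singly, 38.0% had such a summit in all 3 libraries, which is a share of genes and not of pairs. The comparison was with 866 divergent neighbours with TSSs over 1 kb and up to 10 kb apart and no protein-coding TSS between them. Both genes of these were marked in 20.8% in all 3 libraries, and in 22.5%, 25.3% and 25.1% in the separate libraries. The difference was 39.9 ± 1.27 percentage points (SD, n = 3; exact sign-flip permutation test, p = 0.25). Among pairs with at least 1 gene marked, both were marked in 69.4%, 72.5% and 74.7% of close pairs and in 38.1%, 41.2% and 40.7% of distant ones. CpG content moved with this result, since both promoters were CpG-rich in 76.4% of close pairs and 17.1% of distant ones. Between CpG-rich pairs alone the shares were 68.1%, 71.8% and 72.9% of 561 close pairs and 60.1%, 64.2% and 63.5% of 148 distant pairs, a difference of 8.33 ± 0.931 points, and over the libraries the Newcombe intervals of that difference ran from -0.590 to 18.1 points. Single promoters also had summits on both sides of the TSS, in 36.0%, 38.4% and 40.5% of marked cases, and in 47.7%, 49.8% and 52.4% of those with a noncoding TSS opposite.

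The strongest summits of both genes moved apart with their TSSs. They were a median of 516 ± 8.89 bp apart in pairs with TSSs at most 100 bp apart and 1186 ± 22.6 bp apart in pairs with TSSs over 500 bp apart. Across pairs, Spearman's rho between TSS distance and summit spacing was 0.557, 0.580 and 0.602 over 450, 477 and 487 pairs, which share their library and are not replicates, and the spacing includes the distance between the TSSs. At single promoters the upstream and downstream summits were 575, 567 and 567 bp apart, between the medians of pairs with TSSs at most 100 bp apart (516 bp) and over 100 and up to 200 bp apart (609 bp). Over all peaks, summits within the same peak were a median of 361 to 365 bp apart.

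Pairs with distant TSSs were marked less often than close ones, and the marked ones had lower median fold enrichment. Of pairs up to 100 bp apart, 279 of 306 (91.2%, 87.5 to 93.9%) were marked in all 3 libraries, and of those over 500 bp apart 49 of 68 (72.1%, 60.4 to 81.3%). The share with summits in both genes was 70.2 ± 2.45% and 37.7 ± 3.06% in the same classes. A single peak covered both TSSs in 30.4 ± 4.07% of marked pairs up to 100 bp apart and in 10.9 ± 2.22% of those over 500 bp apart, and in 18.04%, 21.0% and 23.6% of all marked pairs. The median fold enrichment of marked pairs was 10.3, 10.8 and 11.7 at up to 100 bp, with a mean of 10.9 ± 0.698, and 9.05, 9.49 and 9.79 at over 500 bp, with a mean of 9.44 ± 0.375 (SD, n = 3 libraries). It was lower at over 500 bp within each library, and at over 300 and up to 500 bp it was 7.90, 8.60 and 10.7. Across pairs the relation was weak, and Spearman's rho between TSS distance and fold enrichment across marked pairs was -0.0672, -0.0812 and -0.0223.

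**Figure D4:**
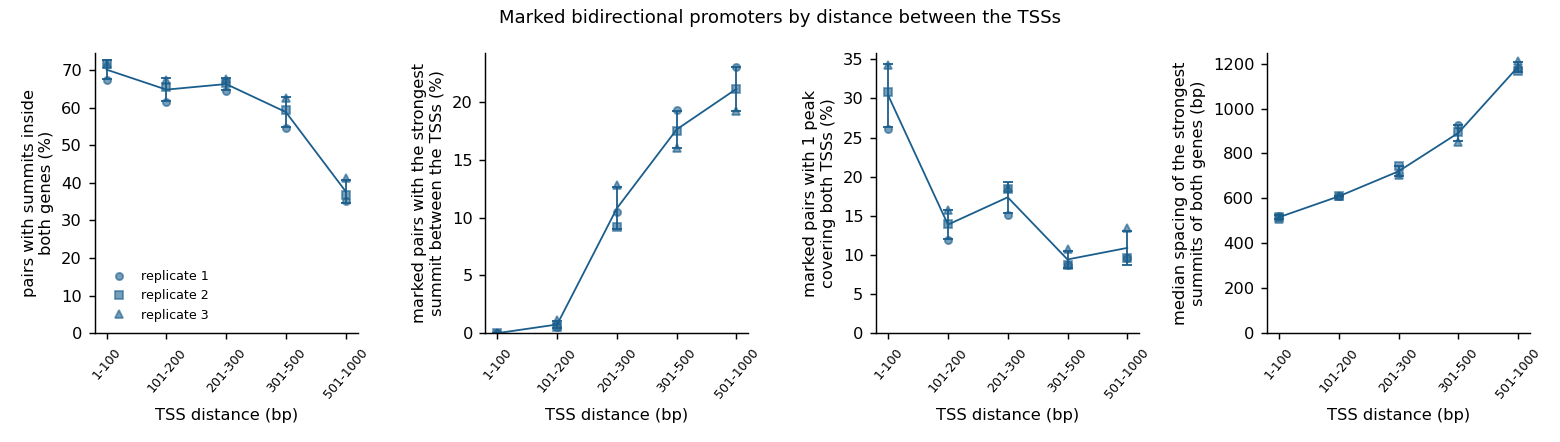
Pairs with summits in both genes (%), marked pairs with the strongest summit between the TSSs (%), marked pairs with 1 peak over both TSSs (%) and the spacing of the genes' strongest summits (bp), by TSS distance (bp). Lines join means over the 3 libraries, error bars are the SD and points the libraries; the share with both genes marked is lowest (37.7%) and the spacing widest (1186 bp) at over 500 bp.

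One gene of a pair was often the more strongly acetylated, and the libraries repeated which. Of the 407 pairs with both genes marked in all 3 libraries, 302 (74.2%, 69.7 to 78.2%) had the same stronger gene in each, the plus-strand gene in 147 of them. The median size of the mean log2 ratio between the genes was 0.62.

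Among pairs with a summit inside both genes in all 3 libraries, the most one-sided, ranked by their smallest difference over the libraries, were Dhx38/Txnl4b, Uqcrq/Gdf9, Pafah1b2/Sik3, Nfya/Oard1 and Emc3/Fancd2. In GRCm38 their TSSs span chr8:109565861-109565892, chr11:53430831-53431023, chr9:46012690-46012820, the interval printed for Nfya and Oard1, and chr6:113531652-113531682. Uqcrq encodes a subunit of complex III of the respiratory chain and Gdf9 a growth factor of the oocyte. The strongest summit inside Uqcrq had a fold enrichment of 18.3, 15.4 and 21.5, and that inside Gdf9 3.63, 3.75 and 3.69. The pairs were chosen for this difference, so the values are a description, and pairs with a summit inside 1 gene only were not ranked. Dhx38, a helicase of pre-mRNA splicing, had 24.5, 21.6 and 26.6 against 3.64, 5.17 and 5.73 in its neighbour Txnl4b. Sik3, a salt-inducible kinase, had 25.9, 27.5 and 29.0 against 6.60, 3.88 and 4.67 in Pafah1b2. In the last of these pairs Emc3, of the complex that inserts membrane proteins into the endoplasmic reticulum, had 19.6, 20.8 and 19.2 against 5.44, 4.0 and 5.46 in Fancd2, a Fanconi anaemia protein of crosslink repair.

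The highest pair was Nfya/Oard1, whose interval is the first one printed. Nfya encodes the A subunit of the CCAAT-binding factor NF-Y, and Oard1 an enzyme that removes ADP-ribose from proteins. The strongest summit, inside Nfya, had a fold enrichment of 39.1, 28.8 and 47.0 from 120, 91 and 152 fragments, and the strongest inside Oard1 7.0, 5.60 and 12.1. The library values of Nfya were spread the most among the highest pairs (38.3 ± 9.14, SD, n = 3). Rbmxl1/Slc10a7, an RNA-binding protein gene and a solute carrier gene, followed with 36.5, 36.1 and 36.1. In Glyr1/Ubn1, Glyr1 codes for a nucleosome-binding protein and Ubn1 for a subunit of the HIRA histone chaperone complex, and both genes were high, at 31.0, 25 and 24.6 in Glyr1 and 34.98, 28.6 and 37.2 in Ubn1. Gm20716/Mocs3 and Dpm1/Mocs3 shared the summit with 31.05, 33.8 and 33.6, and were counted as separate pairs. Cep57/Fam76b, Coa5/Unc50 and Thap2/Zfc3h1 had means of 31.5 ± 2.41, 29.3 ± 2.96 and 29.3 ± 5.15. From TSS to TSS, Rbmxl1/Slc10a7 lies at chr8:78508898-78509346, Cep57/Fam76b at chr9:13827107-13827716, Coa5/Unc50 at chr1:37430103-37430139 and Thap2/Zfc3h1 at chr10:115384443-115384959.

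The lowest of the 636 pairs marked in all 3 libraries were Lrrc75a/Mmgt2 (4.26, 3.00 and 4.23), Ppcs/Zmynd12 (3.89, 4.0 and 4.33), Asb7/Lins1, Chpf/Tmem198 and Dram1/Gnptab, with means of 3.83 to 4.18. Their strongest summits held 9 to 22 fragments, beside medians of 17, 17 and 21 over all called summits of the libraries. Ppcs acts in the synthesis of coenzyme A, Chpf in that of chondroitin, and Gnptab tags enzymes for the lysosome. The values of all 636 pairs kept their order between libraries, with Spearman's rho of 0.903, 0.912 and 0.906 across pairs, against 0.887, 0.892 and 0.896 across 6321 single promoters.

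Of 7 pairs known from textbooks, 6 were marked in all 3 libraries, beside 86.6% of all pairs. Brca1, of repair by homologous recombination, starts 194 bp from Nbr1, an autophagy receptor, and the strongest summit lay inside Nbr1 with 18.4, 14.3 and 21.5, against 3.63, 3.5 and 7.21 inside Brca1. The genes did not overlap, with Nbr1 the higher in each library. Atm, the kinase that answers double-strand breaks, had 4.89, 7.22 and 4.61 against 19.1, 15.9 and 14.3 in Npat, a coactivator of histone genes. Psmb1, a proteasome subunit, had 7.25, 5.79 and 6.52 against 12.4, 14.3 and 16.9 in Tbp, the TATA-binding protein. In these pairs the plus-strand gene was the stronger throughout.

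The genes of Mcm4/Prkdc and Wrap53/Trp53 were more even. Mcm4, of the replicative helicase, had 11.4, 10.5 and 8.60 and Prkdc, the DNA-dependent protein kinase, 6.61, 5.28 and 7.13. Wrap53, of telomerase assembly, had 5.21, 6.07 and 8.56 and Trp53, the tumour suppressor p53, 7.79, 10.6 and 10.8, with Trp53 the higher within each library. Col4a4/Col4a3, type IV collagen genes of basement membranes, had no summit in any library, and the nearest one lay 138117 bp away.

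**Figure D5:**
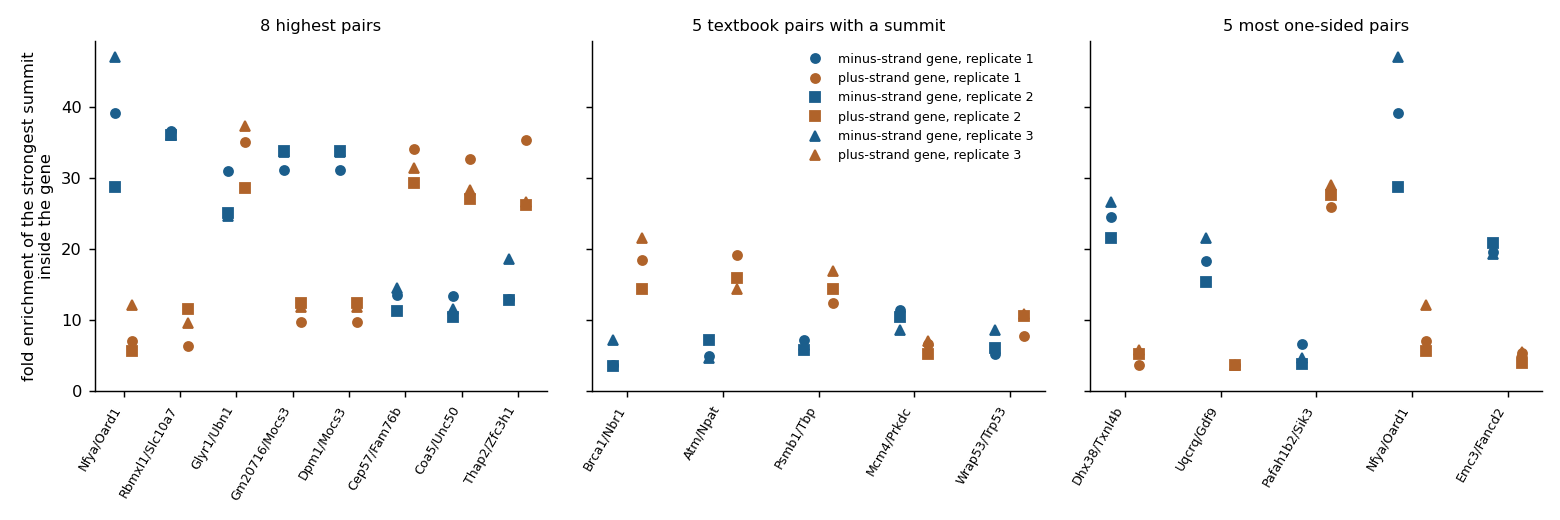
Fold enrichment of the strongest summit inside the minus-strand gene (blue) and the plus-strand gene (brown) in each library, shown by symbol, for the 8 highest pairs, 5 marked textbook pairs and the 5 most one-sided pairs among those with a summit inside both genes in all 3 libraries. The highest value is that of Nfya (47.0), and Nbr1, Npat and Tbp lie above their partners in each library.

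Several textbook pairs were outside the rule because their annotated 5' ends overlap, so that each gene's first bases lie opposite those of its partner. There were 446 such pairs with an overlap of up to 1 kb, of which 371 (83.2%, 79.4 to 86.4%) were marked in all 3 libraries. Hspd1/Hspe1, the mitochondrial chaperonins, had 18.2, 16.4 and 22.7, and Srsf2/Mfsd11, with a splicing factor, 17.3, 16.7 and 20.7. Surf1/Surf2, Ppat/Paics and Psmb9/Tap1 had means of 11.2 ± 0.825, 11.5 ± 0.262 and 9.57 ± 1.36. Col4a1/Col4a2 had no summit.

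Housekeeping lists were well represented among pairs. Of 133 DNA repair and replication genes, 39 (29.3%) were in a pair, against 6.95% of all gene symbols, and 35 of their 38 pairs were marked in all 3 libraries, beside 86.6% of all pairs. The shares in pairs were 18 of 78 for mitochondrial ribosomal proteins (23.1%), 18 of 74 for oxidative phosphorylation (24.3%), 10 of 44 for chaperones (22.7%), 7 of 48 for proteasome subunits (14.6%), 5 of 36 for aminoacyl-tRNA synthetases (13.9%) and 8 of 72 for cytosolic ribosomal proteins (11.1%). In the same order 18 of 18, 18 of 18, 10 of 10, 7 of 7, 5 of 5 and 7 of 8 of these pairs were marked in all 3 libraries, which was not tested against the 86.6% of all pairs. Single genes of the same lists were also mostly marked, at 71 of 82, 39 of 44, 41 of 46, 23 of 26, 30 of 36, 23 of 26 and 55 of 57 in the order named, far above the 34.9% of all single promoters. The lists' medians of the mean fold enrichment ran from 8.85 for aminoacyl-tRNA synthetases to 17.6 for proteasome subunits, beside 11.1 over all pairs.

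The list pairs named here were chosen as the highest of each list, so their values are a description. Rpl9/Lias, a ribosomal protein and lipoic acid synthase, reached 23.6, 26.9 and 26.4, with the summit inside Rpl9. Psma7/Ss18l1, with a proteasome core subunit, had 24.7, 20.9 and 25.4. Mrpl32/Psma2 joins a mitochondrial ribosomal protein and a proteasome subunit and had 17.0, 18.9 and 17.2. Osgep/Apex1, with the main enzyme of abasic sites, had 21.0, 17.2 and 24.6, and Hspa14/Cdnf 19.3, 19.7 and 20.7. The cytosolic ribosomal pair without a summit was Rnf151/Rps2, and the nearest summits lay 1571, 1232 and 1626 bp away.

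Replication-dependent histone genes were in pairs the most often, with 27 of 67 genes (40.3%) in 14 pairs. Of these pairs 13 joined 2 histone genes and 13 were marked in all 3 libraries, beside 86.6% of all pairs. Hist1h2ap/Hist1h2br had 11.9, 10.5 and 15.7, and Bola1/Hist2h2ab and Hist2h2ac/Hist2h2be shared a summit with 12.9, 9.45 and 12.01. These genes have near-identical copies, so where their reads were placed is uncertain. No gene of 9 PRC1.1 subunits was in a pair, and of 65 haematopoietic and leukaemia regulators 2 were (3.08%), Idh1 and Trp53. Of all gene symbols 6.95% were in a pair, so a list of 9 genes is too short to show a low share. Bcor is on the X chromosome, outside the rule for the pairs, and is not among the 9. Idh1/Pikfyve, with isocitrate dehydrogenase and a lipid kinase, had 4.78, 6.62 and 9.75, all inside Pikfyve and none inside Idh1.

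Of the 60 pairs without a summit in any library, 23 (38.3%) had CpG-rich promoters for both genes, against 76.4% of all 734 pairs. The nearest summit was a median of 21906 bp from the TSSs, with 9 pairs within 5 kb and 42 beyond 10 kb. The following were named after their values were seen, and no list was tested. Slc27a5/Trim28 and Rnf151/Rps2 each include a broadly expressed gene, the corepressor Trim28 and the ribosomal protein Rps2. Peg3/Usp29 and Sgce/Peg10 are imprinted, Kirrel2/Nphs1 encode proteins of the kidney filter, Duox2/Duoxa2 make hydrogen peroxide in the thyroid, Klc3/Ckm includes the creatine kinase of muscle, Bhmt2/Dmgdh are enzymes of methyl group metabolism in the liver and Smc1b/Ribc2 include the cohesin subunit of meiosis. From Peg3/Usp29 on, the nearest summits of the pairs named lay from 21610 bp (Klc3/Ckm) to 367022 bp (Peg3/Usp29) away.

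The promoters of pairs differed from single promoters in the short motifs they held. A match to the ETS motif CCGGAAG was found in the window of 27.6% of genes in pairs, 9.20% of single genes and 11.03% of all genes, and a match to the NRF1 motif GCGCANGCG in 20.7%, 6.95% and 8.17%. The NF-Y motif CCAATNNG was found in 23.3%, 15.2% and 15.7%, the SP/KLF motif GGGGCGGGG in 22.3%, 14.1% and 14.8%, the E-box CACGTG in 11.6%, 7.48% and 7.82%, the YY1 motif AANATGGCG in 7.60%, 2.35% and 2.90%, the CRE TGACGTCA in 4.63%, 2.22% and 2.43% and the ZNF143 motif ACTACANTT in 4.56%, 1.67% and 1.94%. In contrast, TATAAAA, the TATA box, was found in 1.93%, 5.29% and 4.95%, the GATA motif AGATAAG in 1.31%, 2.90% and 2.71% and the RUNX motif TGTGGTT in 2.28%, 5.49% and 5.20%. Both genes of a pair are counted and their windows overlap, so they are not independent, and a match is a description of letters.

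CpG content moved with several of these shares. Between CpG-rich promoters alone, 30.9% of 1194 genes in pairs and 17.3% of 6882 single genes held the ETS motif, a difference of 13.6 points (10.9 to 16.5), and 24.4% and 16.2% the NRF1 motif, 8.18 points (5.67 to 10.8). For the SP/KLF motif the order was the other way, at 24.5% and 29.2% (-4.62 points, -7.22 to -1.89). The intervals included 0 for the CRE, the E-box, GATA and RUNX. These intervals cover counting error only.

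Pairs with an ETS match in either gene's window were marked in all 3 libraries in 223 of 236 cases (94.5%), and pairs without one in 413 of 498 (82.9%). For this and the other motifs, CpG content was not matched between pairs with and without a match. The medians of fold enrichment at marked pairs differed little, at 10.6, 10.53 and 11.99 with the match and 9.56, 10.0 and 11.6 without it. Pairs with a CRE were the higher ones, at 12.7, 12.9 and 13.8 against 9.75, 10.0 and 11.7, with 36 pairs holding a match. Pairs with an NRF1 match were marked in 161 of 175 cases (92.0%) but had lower medians, at 8.98, 8.75 and 11 against 10.4, 10.51 and 12.04. The ratio of medians with and without the NRF1 match was 0.870 ± 0.0409 and that for the CRE 1.26 ± 0.0692 (SD, n = 3 libraries). Neither motif stood alone. The mean ratio was 0.815 for ZNF143, 0.823 for RUNX, 0.844 for GATA, 0.877 for the E-box, 0.878 for TATA and 0.909 for NF-Y. It was 1.14 for YY1, 1.07 for ETS and 1.03 for SP/KLF. Some of these ratios rest on few pairs, with 14 pairs holding a GATA match, 20 TATA, 28 RUNX and 40 ZNF143. The same pairs are used in each library, so the SD over libraries does not cover the small number of pairs.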

How the data were processed

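H3K27Ac ChIP-seq of KL cells from BcorΔE9-10 mice was analysed in 3 libraries, labelled as separate samples. Whether they came from separate mice is not in the labels, although the methods list 3 mice. The p-values refer to these libraries only. With 3 libraries the sign-flip permutation test gives p = 0.25 whenever all differences share a sign, so it does not measure their size or spread. The authors' 75 bp single-end reads were aligned to GRCm38 (bowtie2), and after duplicate removal each library was given its own peak list (MACS2 2.1.1); the control and settings were not given in the sources used here. The deposited lists give each summit a fold enrichment, which is a ratio to the background estimated for that library in peak calling, and p- and q-values as −log10. The deposited score only repeats the −log10 q, multiplied by 10 and truncated, and was left aside. The lists hold no read numbers, and fragments were recovered from fold and p-value, which solved 100% of rows. Depth was then estimated from the lowest background of each library, with an assumed fragment length and genome size.

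Peaks with a summit in a region were counted (Python 3.11.15, pandas 2.3.3, scipy 1.17.1), with coordinates in GRCm38 counted from 1, and steps were tested on simulated data. Classes were compared within libraries by an exact sign-flip permutation test, two-sided. Shares of regions carry 95% Wilson intervals and their differences Newcombe intervals; duplicates were removed without molecular identifiers, so these cover counting error only, and regions are not replicates. Pairs named were the 8 highest and 5 lowest in mean log2 fold enrichment, the 5 most one-sided, all textbook pairs, pairs with PRC1.1 or haematopoietic genes and up to 3 of each other list, and some of these are not reported here. The members and lists were chosen with earlier results of these data known. Alternatives are given in the closing section. The other 19 samples were not analysed here.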

Additional observations from a re-analysis of the deposited data

Results flagged for a closer look

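Chromosome X lies outside the rule for the pairs, and its divergent protein-coding pairs were looked at because they appear in none of the comparisons. Of 20 such pairs with TSSs at most 1 kb apart, 9 (45%, 95% Wilson interval 25.8 to 65.8%) had a summit in all 3 libraries, beside 40.7% of all protein-coding genes and 86.6% of the pairs on chromosomes 1 to 19, and 8 had none in any library. A count of 0 among 20 pairs would allow a share of up to 15%. That is a detection limit and not an expected share, so nothing is concluded from the share being above it. The marked pairs included Pqbp1/Timm17b, Idh3g/Ssr4, Fam3a/Ikbkg, Cmc4/Brcc3, Mtcp1/Brcc3, Gla/Hnrnph2, Ribc1/Smc1a and Mospd2/Fancb. Cmc4/Brcc3 and Mtcp1/Brcc3 share a gene and were counted as separate pairs. The mice were male, with 1 X chromosome, and neither this nor the difference from chromosomes 1 to 19 was tested.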

How the results depend on the processing

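The difference in the share marked in all 3 libraries kept its direction under all 11 alternatives (26.3 to 54.3 percentage points). None of these alternatives matched the number of gene starts between the classes. It was 54.3 points against single promoters without a noncoding TSS opposite and 26.3 points among CpG-rich promoters. Without olfactory, vomeronasal and taste receptor and histone genes, an alternative chosen after seeing the data, it was 48.6 points. Pairs also stayed higher in fold enrichment (ratio 1.05 to 1.18 under 9 alternatives, and 1.27 for −log10 p in its place) and summed peak width (1.26 to 1.41 under 9). The difference in pairs with both genes marked ran from 8.33 points among CpG-rich pairs to 41.8 points under 9 alternatives. The strongest summit lay between the TSSs in 3.41% of marked pairs with TSSs at most 500 bp apart, 5.58% with TSSs of protein-coding transcripts and 5.12% when ranked by −log10 p. Agreement between libraries had a mean rho of 0.894 at a −log10 q of at least 5 and 0.915 by −log10 p. The CpG ratio of genes in pairs was 0.385 above that of single genes, and 0.320 above it with 150 bases on each side of the TSS. None of the 11 motif differences changed direction with that window. With 1 library left out, the share marked differed by 51.7 to 52.5 points, fold enrichment by a ratio of 1.15 and the summed width by one of 1.36 to 1.37. Both genes were then marked 39.2 to 40.5 points more often, the strongest summit lay between the TSSs in 4.70% to 4.95% of marked pairs and the mean rho was 0.906 to 0.913. The same gene was stronger in both remaining libraries in 81.2% to 85.6% of pairs, since fewer libraries have to agree. No paired analysis was possible because the files cover a single group, so that replicate numbers pair no libraries across groups; the sign-flip tests compare promoter classes within each library. Summits with fewer than 8 or 9 fragments were not called at these depths.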
